A study of Mus musculus with 16 samples.

Results

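The miR-15/16 family was followed in mouse heart tissue across 1, 2 and 3 days of social stress. Its members were taken as the probes whose name on the array holds mmu-miR-15a, mmu-miR-15b, mmu-miR-16, mmu-miR-195, mmu-miR-322 or mmu-miR-497, written below without the species prefix mmu, which gave 6 of the 1023 mouse microRNA probes. Each of the 6 has 1 probe, spotted 4 times on every array. The probe names also list the human or rat microRNA of the same name, and the name of each probe is that of the array design. All hearts came from C57BL/6 mice, an inbred laboratory strain, used as a model of post-traumatic stress disorder. Exposed mice spent 6 hours a day in a wire mesh box placed in an aggressor's cage, for 1 day (T1R1), 2 days (T2R1) or 3 days (T3R1), and then rested for 1 day. Control mice were boxed likewise in a cage without an aggressor, and the code C2R1 in their titles is not spelled out in the labels. The animals' age and sex are not given in the sources used here. Each of the 4 groups held 4 samples, taken as separate hearts because the extraction protocol speaks of individual hearts.

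MicroRNAs are short RNAs that pair with messenger RNAs mainly through bases 2 to 8, the seed, and lower the output of their targets. The miR-15/16 family is best known for restraining the cell cycle through cyclins, cyclin-dependent kinases and checkpoint kinases, and for lowering the survival protein Bcl2. In the mouse heart miR-195 and its relatives are known for their link to the withdrawal of cardiac muscle cells from division after birth. The question asked of each member was whether its signal in the heart varied with the length of exposure.

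The mature sequences of the 6 members are shown because the shared seed defines the family and the remaining bases decide how far 1 probe can be told from another. They are printed from 5′ to 3′ with the seed in capitals, and all 6 matched an entry of RefSeq (build GRCm38.p6), where miR-195 and miR-497 are named miR-195a and miR-497a.
miR-15a: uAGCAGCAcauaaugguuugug
miR-15b: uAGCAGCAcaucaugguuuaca
miR-16: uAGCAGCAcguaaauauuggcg
miR-195: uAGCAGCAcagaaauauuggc
miR-322: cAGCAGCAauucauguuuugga
miR-497: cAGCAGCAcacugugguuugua
All 6 carried the same seed, AGCAGCA, which 10 of 1679 mature mouse microRNA names in the RefSeq table share. Outside the seed the members diverged, so that only 9 of the first 21 bases were the same in all 6. Compared base by base from the 5′ end, miR-16 and miR-195 were the closest pair, with 19 of 21 bases identical and the substitutions G10A and U11G, counted from 1 at the 5′ end. miR-15a and miR-15b shared 18 of 22 bases, while miR-16 and miR-497 shared 11 of 22. How far the probes of such close pairs bind each other's target was not tested.

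The family lies in 4 clusters. miR-15a (chr14:61632075-61632096, minus strand) and 1 copy of miR-16 (chr14:61631936-61631957, minus strand) lie 117 bases apart within the gene Dleu2, a long non-coding RNA gene. miR-15b (chr3:69009775-69009796, plus strand) and the other copy of miR-16 (chr3:69009918-69009939, plus strand) lie 121 bases apart within Smc4, which encodes a subunit of the chromosome-condensing complex condensin. Both copies give the same mature miR-16, so its signal cannot be assigned to either. miR-195 (chr11:70235062-70235082, plus strand) and miR-497 (chr11:70234730-70234751, plus strand) lie 310 bases apart, and the gene table held no host gene for them. miR-322 (chrX:53054306-53054327, minus strand) lies 256 bases from miR-503 (chrX:53054027-53054049, minus strand) within C430049B03Rik. miR-503 is no member by name, and its sequence is shown because it is an often-cited relative that departs from the family at the last base of the seed.
miR-503: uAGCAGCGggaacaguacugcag
The substitution from miR-16 to miR-503 within the seed is A8G.

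Each array held 2 samples of 1 group, the odd replicate labelled with the dye Hy3 and the even replicate with Hy5. Control and T3R1 arrays belonged to 1 run of slide numbers and T1R1 and T2R1 arrays to another. T3R1 can thus be set against control within a run, and T2R1 against T1R1, while in the other comparisons exposure and slide run cannot be told apart. Pre-labelled positioning spots read 15723 ± 263 in the first run and 24784 ± 2125 in the second (SD, n = 4 arrays each). The median raw intensity of the mouse probes was 41.2 to 73.7 per sample, and 164 to 242 of them exceeded the background level, set for each sample at the 95th percentile of 143 probes for human viruses. Of all mouse probes 224 exceeded it in at least 4 samples. In tissue RNA, fewer cells of a type and less RNA per cell cannot be told apart. The p-values set each difference against a spread between samples that is partly pooled over all probes. They also assume 1 array correlation for all probes, 0.251, which was 0.641 over the probes above background. The number of arrays, 2 per group, limits the precision of the p-values.

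Of the 6 members, 4 were measured above background and the other two were not. miR-15a, miR-15b, miR-16 and miR-195 exceeded the virus-probe level in 16 of 16 samples. miR-15a stood 1.19 to 1.97 above that level on the log2 scale, miR-15b 0.45 to 1.91, miR-16 2.15 to 3.37 and miR-195 0.46 to 1.498. miR-322 exceeded the level in 0 of 16 samples and miR-497 in 1, T1R1 replicate 4, where it passed by 0.01. No spot of a member was saturated. All 64 spots of each member were usable except those of miR-16, of which 54 of 64 remained after spots marked as outliers were removed. In control replicates 1 and 2 the miR-16 value rests on 1 spot each.

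**Figure D1:**
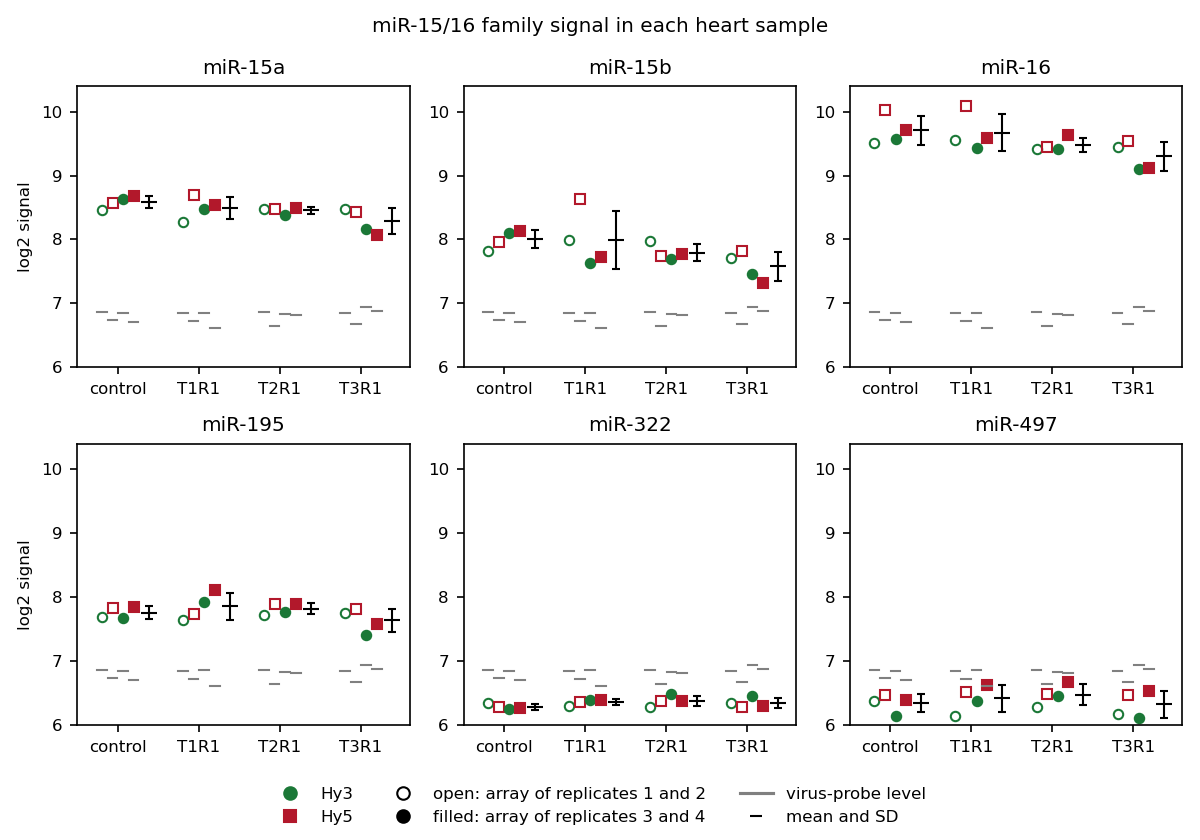
Log2 signal of the 6 family members (vertical axis) in each sample of the 4 groups, with the group mean and SD in black and the virus-probe level of each sample as a grey line. miR-15a, miR-15b, miR-16 and miR-195 lie above the grey lines in 16 of 16 samples, and the filled points of T3R1 (replicates 3 and 4) are the lowest of all samples for these 4 members.

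miR-16, known for targeting cyclins and Bcl2, had log2 signals of 9.51, 10.02, 9.58 and 9.71 in control replicates 1 to 4. The corresponding signals were 9.56, 10.09, 9.43 and 9.58 in T1R1, 9.42, 9.45, 9.41 and 9.63 in T2R1, and 9.45, 9.54, 9.10 and 9.12 in T3R1. T3R1 replicates 3 and 4, which share an array, were the lowest of all 16 samples, while T3R1 replicate 2 lay above the lowest control. The group means were 9.70 ± 0.22 in control, 9.67 ± 0.29 in T1R1, 9.48 ± 0.10 in T2R1 and 9.30 ± 0.23 in T3R1 (SD, n = 4 each).

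miR-15a, the cluster mate of miR-16 on chromosome 14, had log2 signals of 8.46, 8.58, 8.64 and 8.68 in control. They were 8.28, 8.69, 8.47 and 8.54 in T1R1, 8.48, 8.47, 8.38 and 8.49 in T2R1, and 8.48, 8.44, 8.17 and 8.07 in T3R1. The same T3R1 replicates 3 and 4 were lowest, and the other T3R1 samples fell within the range of T2R1. The means were 8.59 ± 0.10 in control, 8.49 ± 0.17 in T1R1, 8.46 ± 0.05 in T2R1 and 8.29 ± 0.20 in T3R1.

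miR-15b, the cluster mate of miR-16 on chromosome 3, had log2 signals of 7.83, 7.96, 8.10 and 8.13 in control. They were 7.99, 8.63, 7.64 and 7.72 in T1R1, 7.98, 7.73, 7.69 and 7.77 in T2R1, and 7.72, 7.82, 7.46 and 7.32 in T3R1. Its 4 T3R1 samples all lay below the 4 control samples, with T3R1 replicate 2 just under control replicate 1. T1R1 replicate 2 was the highest sample of all, and T1R1 replicates 3 and 4 lay below every control. The means were 8.004 ± 0.142 in control, 7.99 ± 0.45 in T1R1, 7.79 ± 0.13 in T2R1 and 7.58 ± 0.23 in T3R1. The residual SD of miR-15b, 0.27, stood at percentile 94.2 of the 224 probes above background, against percentiles of 57.1 for miR-15a, 81.2 for miR-16 and 48.2 for miR-195.

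miR-195, linked in mouse heart to the exit of muscle cells from division, had log2 signals of 7.69, 7.84, 7.67 and 7.85 in control. They were 7.64, 7.75, 7.93 and 8.12 in T1R1, 7.72, 7.89, 7.77 and 7.89 in T2R1, and 7.76, 7.81, 7.41 and 7.58 in T3R1. Again T3R1 replicates 3 and 4 were lowest, whereas T3R1 replicates 1 and 2 lay inside the control range. T1R1 replicate 4 was highest, in the array where miR-15b was low for its group. The means were 7.76 ± 0.10 in control, 7.86 ± 0.21 in T1R1, 7.82 ± 0.09 in T2R1 and 7.64 ± 0.18 in T3R1.

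miR-497, the cluster mate of miR-195, and miR-322, the mouse counterpart of human miR-424, were not distinguished from background in these hearts. The log2 signal of miR-322 ranged from 6.25 to 6.48 and that of miR-497 from 6.12 to 6.68 over the 16 samples. In Hy3 the raw intensities were 45.3 to 74.8 for miR-322, next to local backgrounds of 18.5 to 29.25. For miR-497 they were 37.1 to 48.9, next to 16.5 to 22.5. In Hy5 they were 70.5 to 82.8 for miR-322, next to 71.75 to 74.5, and 77.5 to 107 for miR-497, next to 67.75 to 75.25. The Hy3 signals thus exceeded the local background but not the virus-probe level. Group means lay between 6.29 and 6.38 for miR-322 and between 6.33 and 6.48 for miR-497. A change in either microRNA was not detectable at this signal, so their tests below compare background-level values.

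In order of group means, miR-15a, miR-15b and miR-16 each ran T3R1, T2R1, T1R1, control from low to high, and miR-195 ran T3R1, control, T2R1, T1R1. No neighbours in these orders were told apart by the test at the scaling used here. No group of any member was separated from another without overlap, apart from miR-15b in T3R1 and control.

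After 3 days of exposure the signals of miR-15a, miR-15b and miR-16 averaged below control (under median scaling between arrays miR-15a and miR-16 averaged above it), and 0 of the 6 members passed the test. miR-16 differed from control by -0.40 ± 0.14 on the log2 scale (SE; 95% interval -0.70 to -0.11), a signal of 0.757 of control (0.617 to 0.929). Its limma p was 0.0114, or 0.470 adjusted over all probes, and 4 of 4 T3R1 samples lay below the control mean. miR-15a differed by -0.30 ± 0.10 (-0.52 to -0.08; limma adjusted p = 0.470), a signal of 0.811 of control, with 4 of 4 samples below the control mean. miR-15b differed by -0.43 ± 0.19 (-0.83 to -0.02; limma adjusted p = 0.624), a signal of 0.745 of control, with 4 of 4 samples below. miR-195 stood at -0.12 ± 0.09 (-0.31 to 0.07; limma adjusted p = 0.904), with 3 of 4 below. The background-level miR-322 and miR-497 stood at 0.06 ± 0.06 and -0.02 ± 0.08.

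Over all 1022 probes tested between T3R1 and control 0 were called, which is 0% (adjusted p under 0.05), so the members' count equals the background. At an unadjusted limma p under 0.05, 74 of the 1022 probes passed (7.24%), 44 of them lower (4.31%), and 3 members were among these. Among the 223 tested probes above background 27 were lower at that level (12.1%). miR-15b was 1 of 20 of 1019 probes whose T3R1 samples all lay below control (1.96%), and 1 of 9 of 220 above background (4.09%). The median difference was -0.21 over the 6 members and -0.35 over the 4 above background, against 0.00 over all probes and 0.00 over those above background. Among the 223 probes above background, counted from the most negative, miR-15b was at rank 5, miR-16 at 8, miR-15a at 20 and miR-195 at 58. Over the 7 ways of scaling or background correction described below these ranks ran from 2 to 8 for miR-15b, from 8 to 73 for miR-16, from 12 to 46 for miR-15a and from 58 to 86 for miR-195.

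**Figure D2:**
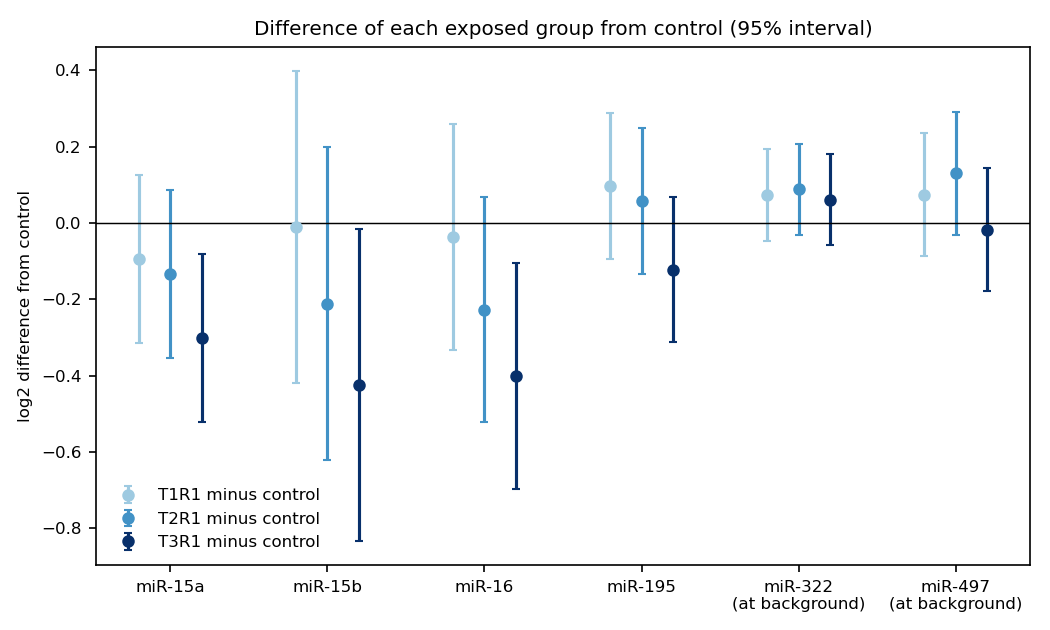
Log2 difference of T1R1, T2R1 and T3R1 from control for each member, with its 95% interval from the linear model. The intervals of miR-15a, miR-15b and miR-16 in T3R1 lie below 0 before adjustment over all probes, while those of T1R1 and T2R1 include 0 for all 6 members. All intervals use the array correlation over all mouse probes, 0.251, which is lower than the 0.641 over the probes above background.

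The T3R1 difference was carried unequally by the 2 T3R1 arrays. On the array of replicates 1 and 2 the mean log2 signals were 9.498 for miR-16, 8.46 for miR-15a, 7.77 for miR-15b and 7.79 for miR-195. On the array of replicates 3 and 4 they were 9.11, 8.12, 7.39 and 7.49 for the same members. The virus-probe level there was 6.95 in replicate 3 and 6.87 in replicate 4, each the highest of its dye. T3R1 replicate 3 also had the fewest mouse probes above that level of all samples, 164, and T3R1 replicate 4 had 182. The part of this higher background in the members' values was not tested. Without the array of replicates 3 and 4 the differences from control were -0.21 ± 0.15 for miR-16, -0.13 ± 0.10 for miR-15a, -0.24 ± 0.23 for miR-15b and 0.02 ± 0.09 for miR-195. Without the array of replicates 1 and 2 they were -0.60 ± 0.15, -0.47 ± 0.10, -0.61 ± 0.24 and -0.27 ± 0.09 in that order, and 0 members were called either way. With outlier spots kept, miR-16 stood at -0.26 ± 0.14 in T3R1.

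The direction also depended on how arrays were brought to one scale. With median scaling between arrays in place of the Aquantile method, the T3R1 differences turned positive for miR-15a (0.11), miR-16 (0.17) and miR-195 (0.20), and miR-15b stood at -0.05. That scaling raised the median of the probes above background by 0.24, and loess with no step between arrays lowered it by 0.40 and the median of all probes by 0.62. Relative to the median of the probes above background, the 4 members stayed negative in T3R1 under each of 7 ways of scaling or background correction. These ways include the one reported here. Among them, median scaling and loess with no step between arrays differ only by a shift of whole arrays. They therefore give the same relative differences and ranks and are not separate results. That relative difference ranged from -0.61 to -0.28 for miR-15b, from -0.45 to -0.12 for miR-15a, from -0.49 to -0.06 for miR-16 and from -0.20 to -0.04 for miR-195.

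**Figure D3:**
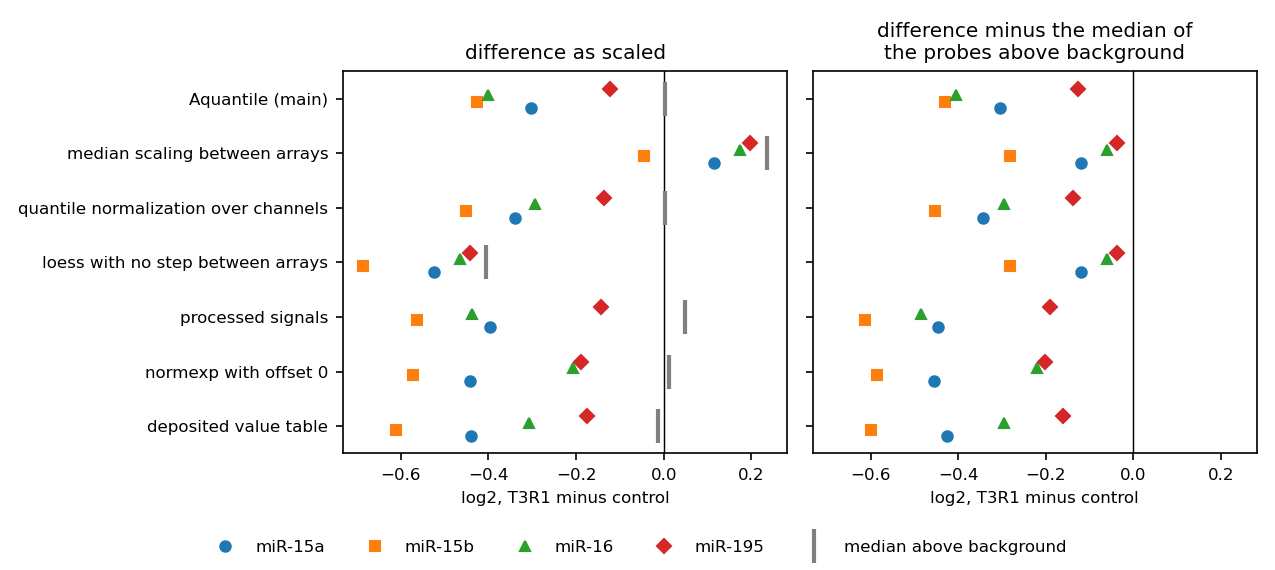
Log2 difference of T3R1 from control for 4 members under 7 ways of scaling or background correction, as scaled on the left and minus the median of the probes above background on the right, with that median as a grey bar. On the left miR-15a, miR-16 and miR-195 lie right of 0 under median scaling, and on the right the 4 members lie left of 0 in each row.

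Most markers of the cell types in a heart also averaged below control in T3R1, and under median scaling most of them averaged above it. All 5 measured heart muscle microRNAs (miR-133a, miR-133b, miR-208a-3p, miR-208b and miR-499) had negative differences from control, as did 3 of 3 erythroid (miR-144, miR-451 and the miR-486 probe), 6 of 6 leukocyte and 2 of 2 endothelial ones, with 0 called in each list. Under median scaling 0 of 5 heart muscle, 1 of 3 erythroid, 3 of 6 leukocyte and 0 of 2 endothelial microRNAs were negative. The only smooth muscle marker measured in both groups, miR-145, stood at -0.05 ± 0.08. The summed log2 level was 12.1 to 12.6 in control and 11.9 to 12.4 in T3R1 for heart muscle, and 11.5 to 11.9 and 10.9 to 11.6 for the endothelial miR-126 strands. For erythroid markers it was 8.74 to 9.33 and 8.45 to 9.01, and for leukocyte markers 9.59 to 9.85 and 9.47 to 9.60. The muscle marker miR-1 was not analysed here, and the sums leave out miR-208a-3p and miR-451, which lack values in some samples. Some markers in these counts were dim. The virus-probe level was exceeded in 0 of 16 samples by miR-155 (6.29 in T3R1), in 5 by miR-146a and in 7 by miR-208b. Of all probes tested, 50.9% had a negative difference of T3R1 from control, and 49.8% of those above background. T3R1 replicates 3 and 4, lowest for the 4 measured members, were also the lowest samples for miR-126-3p (11.00 and 10.79), miR-133b (11.34 and 11.29) and miR-499 (7.78 and 7.83). The same held for miR-126-5p and miR-144 and, where measured, for miR-451 and miR-143. It did not hold for miR-133a, miR-208a-3p, miR-208b, miR-145, the miR-486 probe or any leukocyte marker. The low values on this array were thus not particular to the family. The part of these markers in the family's result was not tested.

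After 1 day of exposure no member was told apart from control, where 8 of 1021 probes were called (0.784%). The differences of T1R1 from control were -0.09 ± 0.10 for miR-15a, -0.01 ± 0.19 for miR-15b, -0.04 ± 0.14 for miR-16 and 0.10 ± 0.09 for miR-195. 0 members had an unadjusted limma p under 0.05, as 8.91% of the probes did, and the smallest adjusted p was 0.804. The 95% interval for miR-15b, -0.42 to 0.40, was the widest of the 6 members, and T1R1 replicate 2 lay 0.64 above replicate 1 of the same array. After 2 days 0 members were called, where 9 of 1022 probes were (0.881%). miR-15a stood at -0.13 ± 0.10, miR-15b at -0.21 ± 0.19, miR-16 at -0.23 ± 0.14 and miR-195 at 0.06 ± 0.09, the smallest adjusted p was 0.785, and 0 members had an unadjusted p under 0.05, as 7.73% of the probes did. Exposure and slide run cannot be told apart in either comparison. Under median scaling miR-15a, miR-16 and miR-195 were called higher in both and miR-15b in T1R1, with 215 (21.1%) and 198 (19.4%) of the probes called in all, and miR-16 stood at 1.05 in T1R1 and 0.80 in T2R1. All 3 comparisons with control share the control samples.

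Between exposed groups 0 members were called as well. T2R1 stood at -0.04 ± 0.10 from T1R1 for miR-15a, -0.20 ± 0.19 for miR-15b, -0.19 ± 0.14 for miR-16 and -0.04 ± 0.09 for miR-195, in a comparison within a slide run where 0 of 1022 probes were called (0%) and 36 had an unadjusted limma p under 0.05 (3.52%), 0 of them members. T3R1 was below T1R1 for 6 of 6 members, with miR-322 turning to 0.09 in the deposited table, where 28 of 1022 probes were called (2.74%). At an unadjusted limma p under 0.05, 3 members passed (miR-15b, miR-16 and miR-195), as did 14.5% of the probes. The difference was -0.36 ± 0.14 for miR-16 (limma adjusted p = 0.216), -0.42 ± 0.19 for miR-15b (0.335), -0.22 ± 0.09 for miR-195 (0.249) and -0.21 ± 0.10 for miR-15a (0.388). miR-195 was called lower in T3R1 than T1R1 without the array of T1R1 replicates 1 and 2 (29 probes called in all, 2.84%) and without that of T3R1 replicates 1 and 2 (42 in all, 4.11%). Median scaling called all 4 of these members lower, with 84 of 1022 probes called in all (8.22%). Markers of the heart's cell types lay lower in the same comparison, with 5 of 5 heart muscle, 3 of 3 erythroid, 5 of 6 leukocyte and 2 of 2 endothelial microRNAs negative. Of these miR-133b (-0.63 ± 0.15), miR-146a (-0.33 ± 0.05) and miR-126-3p (-0.56 ± 0.13) were called, and 58.7% of all probes tested were negative. miR-146a lay near background and exceeded the virus-probe level in only 5 of 16 samples. The part of these markers in the members' values was not tested. T3R1 was also below T2R1 for 6 of 6 members, from -0.03 ± 0.06 for miR-322 to -0.21 ± 0.19 for miR-15b, where 12 of 1023 probes were called (1.17%). Of all probes tested 56.9% were negative in that comparison, and 57.6% of those above background. There 0 members had an unadjusted limma p under 0.05, as 10.1% of the probes did. Of the members, median scaling called miR-15a lower there, with 42 of 1023 probes called in all (4.11%). T3R1 and the other exposed groups lie in different slide runs.

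The members did not all vary together from sample to sample. After each dye's mean was removed, miR-15b and miR-16 correlated at r = 0.86 over the 16 samples, miR-15a and miR-16 at 0.79 and miR-15a and miR-15b at 0.76. With group means removed as well, these were 0.77, 0.65 and 0.64. miR-195, the nearest to miR-16 in sequence, correlated at 0.30 with miR-16 and at 0.09 with miR-15b, or at 0.01 and -0.29 within groups. With miR-15a it correlated at 0.55, or at 0.47 within groups. In T1R1 the array of replicates 1 and 2 averaged 8.31 for miR-15b and 7.70 for miR-195, and that of replicates 3 and 4 averaged 7.68 and 8.02. These correlations are descriptions over samples that share arrays in pairs. The dyes also read some members differently: the Hy5 sample exceeded the Hy3 sample of its array on 8 of 8 arrays for miR-16, miR-195 and miR-497, by 0.21, 0.14 and 0.27 on average, against 5 of 8 for miR-15a.

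Among the 129 other mouse probes above background in all samples, the profile most like the mean of the 4 measured members was that of miR-106b (r = 0.91, n = 16 samples), followed by miR-19b (0.90), miR-19a (0.87), miR-499 (0.80) and miR-140* (0.78). miR-106b, miR-19a and miR-19b come from the miR-17-92 cluster and its relatives, which are known for favouring proliferation, miR-499 is encoded in a myosin gene, and miR-140* is the partner strand of miR-140. The median r over the 129 probes was 0.05, and 67 were positive. Without T3R1 replicates 3 and 4, the samples farthest from the family's median, r was 0.87 for miR-106b, 0.71 for miR-19b and 0.80 for miR-19a, but 0.32 for miR-499 and 0.52 for miR-140*. miR-106b had log2 signals of 7.71, 7.67, 8.04 and 7.88 in control and of 7.74, 7.73, 7.37 and 7.23 in T3R1. Its highest sample was T1R1 replicate 2 at 8.27, which was also the highest sample for miR-15a, miR-15b and miR-16. The erythroid markers miR-144 (9.997) and miR-451 (13.6, with values missing in some samples) peaked in that sample too. So did the leukocyte markers miR-142-3p (8.12), miR-142-5p (7.87) and miR-223 (8.07). The erythroid miR-486 probe (7.19) and the leukocyte markers miR-146a (6.72), miR-150 (6.84) and miR-155 (6.33) did not peak there. Over the 16 samples miR-144 correlated at r = 0.75 with the family mean, or at 0.78 within groups, and the part of blood cells in these profiles was not tested. In T3R1 miR-106b stood at -0.31 ± 0.16 from control (limma adjusted p = 0.736).

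**Figure D4:**
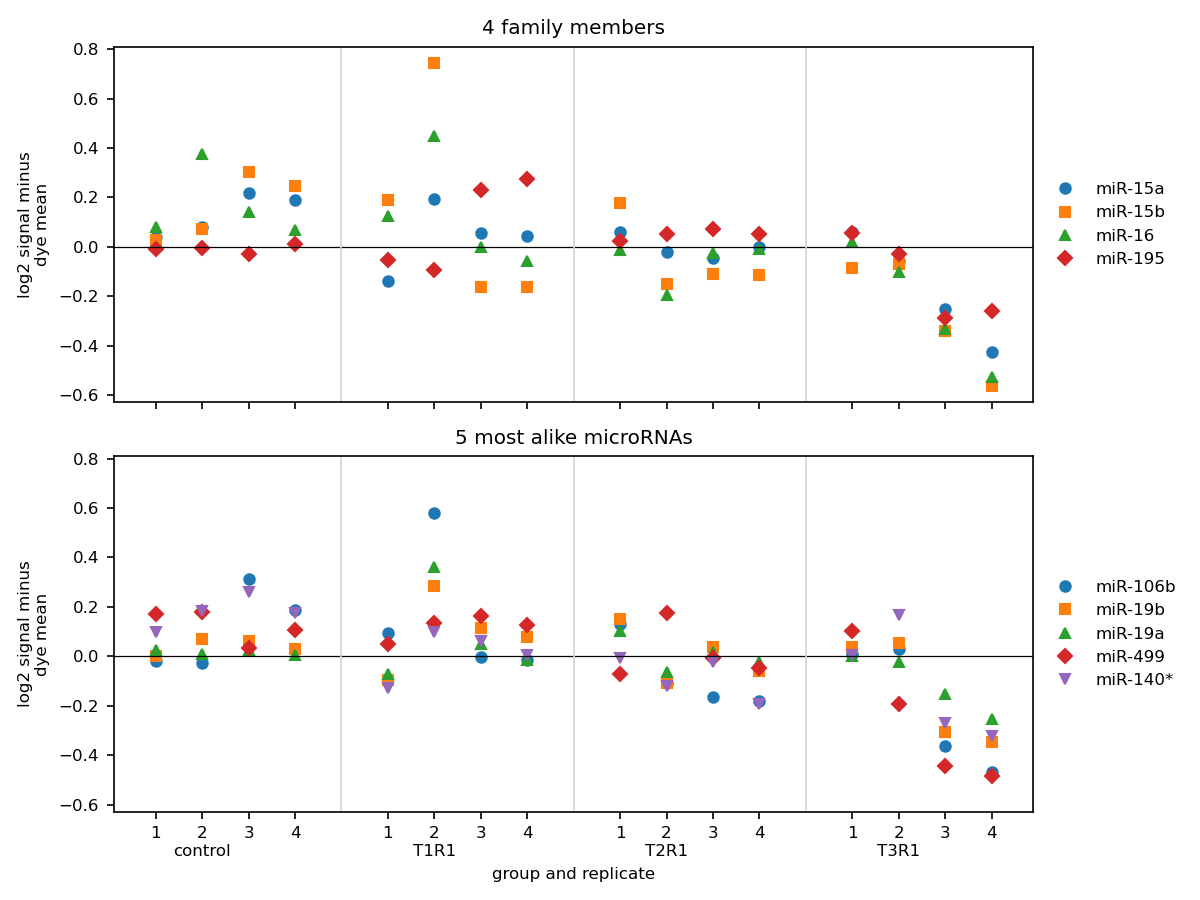
Log2 signal minus the mean of its dye (vertical axis) in each of the 16 samples, for the 4 family members above background and the 5 microRNAs with the most similar profiles. T1R1 replicate 2 is the highest sample for miR-15a, miR-15b, miR-16 and miR-106b before this centring. T3R1 replicates 3 and 4 lie lowest for the members and for the 5 other microRNAs.

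No partner strand and no neighbour of miR-322 was called in any comparison at the scaling used here. Of the partner strands, the strands of each hairpin that are usually less abundant, 7 probes were found (miR-15a*, miR-15b*, miR-16-1*, miR-16-2*, miR-195*, miR-322* and miR-497*), and 0 exceeded the virus-probe level in at least 4 samples. Their T3R1 differences ranged from -0.05 to 0.14, so the 2 copies of miR-16 could not be followed through them. Of the cluster neighbours of miR-322, 9 probes were found and 2, miR-351 and miR-503*, exceeded background in at least 4 samples. In T3R1, 8 of the 9 had positive differences, or 0 of 9 under loess with no step between arrays. They ran from -0.11 to 0.14 with a median of 0.07. miR-503, the relative that departs at the last seed base, stood at 0.05 ± 0.15 from control in T3R1. miR-503*, its partner strand, stood at 0.14 ± 0.08, and miR-351 at 0.08 ± 0.06. Across the slide runs, where exposure and run cannot be told apart, miR-503* stood at 0.34 ± 0.08 in T1R1 from control (limma adjusted p = 0.0558) and miR-351 at 0.24 ± 0.06 in T3R1 from T1R1 (limma adjusted p = 0.0711).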

How the data were processed

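Per the file headers the authors made an intensity per spot and dye (mean brightness and local background) with Agilent Feature Extraction 9.5.3.1, and the deposited files hold other marks for outlier and saturated spots. No source used here says how the deposited log2 value table was made. The median was 3.76 in every column of it, each followed its own channel (r of 0.967 to 0.995), and the centring stays unknown.

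From the intensities, R 4.3.3 with limma 3.58.1 applied normexp (offset 50), loess within arrays with control spots at weight 0, and Aquantile between arrays. Each channel was 1 sample, outlier spots (1.69% to 5.52%) were dropped and spots averaged. A model of group and dye with array as a random block (duplicateCorrelation, 0.251) gave moderated tests, adjusted by Benjamini-Hochberg over all mouse probes and called under 0.05. Over the probes above background the array correlation was 0.641. A fit with that value called 0 members in each comparison, and its intervals are not given here. Methods were tested on simulated data. All 6 members were named, and of other probes the 5 most correlated with the family mean. Members and lists were chosen with earlier results of these data known. Replicate numbers mark the dye and did not pair samples.

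The protocol text gives longer exposures than the design text, which was followed. Alternatives changed background correction, scaling, filters, blocks and samples.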

Additional observations from a re-analysis of the deposited data

Results flagged for a closer look

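In 1 of the 24 sets of 4 samples (6 members in 4 groups) a sample stood apart from the others of its group. miR-16 in T2R1 replicate 4, at 9.63, was highest against 9.41, 9.42 and 9.45, and its gap made up 0.839 of the group's range, past Dixon's critical value for 4 samples. Chance gives about 1 such set in 20. The sample was labelled with Hy5, the dye in which miR-16 read higher on 8 of 8 arrays.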

How the results depend on the processing

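0 members were called in each comparison under 187 of 194 comparison and setting pairs. Median scaling between arrays called 4 in T1R1 and 3 in T2R1 against control, 4 in T3R1 against T1R1 and 1 in T3R1 against T2R1, where it called 21.1%, 19.4%, 8.22% and 4.11% of all probes. Loess with no step between arrays called 2 in T3R1 against control, the background-level miR-322 and miR-497, among 703 of 1022 probes called (68.8%). Leaving out the array of T1R1 replicates 1 and 2, or that of T3R1 replicates 1 and 2, called 1 (miR-195) in T3R1 against T1R1, among 29 and 42 probes. These leave-array-out settings were chosen after seeing the data.

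The replicate numbers did not pair samples: deviations of same-numbered samples correlated at -0.48 to 0.48. The replicate block in place of dye called 0 members in each comparison.

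Single members turned direction under some settings. In T1R1 against control, miR-16 stood at 0.21 with normexp at offset 0, 1.05 with median scaling, 0.049 with quantile normalization, 0.42 with loess alone, 0.043 in the deposited table and 0.087 with outlier spots kept. miR-15b stood at 0.63 with median scaling, 0.063 with quantile normalization and 0.00090 with loess alone, and miR-15a at 0.69 and 0.063 with median scaling and loess alone. miR-322 stood at -0.52 with loess alone and -0.0073 in the deposited table, and miR-497 at -0.49 with loess alone. In T2R1 against control, miR-15a, miR-15b and miR-16 stood at 0.62, 0.37 and 0.80 with median scaling, and miR-16, miR-195, miR-322 and miR-497 at 0.15, -0.065, -0.52 and -0.43 with loess alone. In T3R1 against control, median scaling gave 0.11 for miR-15a, 0.17 for miR-16, 0.20 for miR-195 and 0.019 for miR-497, and loess alone gave -0.56 for miR-322. miR-497 stood at 0.0026 with normexp at offset 0, 0.050 with processed signals and 0.058 without the array of control replicates 1 and 2, and miR-195 at 0.023 without that of T3R1 replicates 3 and 4. In T3R1 against T1R1, miR-322 stood at 0.089 in the deposited table. The cause of these turns was not tested.

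With each replicate left out in turn 0 members were called, and differences that turned ranged as follows. In T1R1 against control miR-16 ranged from -0.14 to 0.043 and miR-15b from -0.20 to 0.071. In T2R1 against T1R1 miR-15a ranged from -0.12 to 0.033, miR-195 from -0.083 to 0.013 and miR-322 from -0.016 to 0.053. miR-322 ranged from -0.049 to 0.0092 in T3R1 against T1R1 and from -0.065 to 0.0041 against T2R1, and miR-497 from -0.051 to 0.039 in T3R1 against control. Signals near background limit what miR-322 and miR-497 can show.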
